A study of Rattus norvegicus with 16 samples.

Results

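Regulators of neuronal apoptosis were followed on microarrays of rat dorsal root ganglia (DRG), the ganglia that hold the cell bodies of sensory neurons, after injury of the sciatic nerve. The genes were Bcl2, Bcl2l1, Bax, Bcl2l11, Hrk, Casp6 and Cdkn1a. An Affymetrix identification (Affy_ID, a set of probes read as 1 value) belonged to a gene when the array annotation listed that symbol and no other. By this rule 11 Affy_IDs of 6 genes were found among the 31042 Affy_IDs tested. The only Affy_ID listed for Bax also listed a gene without a name of its own, 2 genes in all, so no level of Bax is given.

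The arrays measured messenger RNA of L4/L5 DRG in Sprague-Dawley males aged 2 months, called adult, and in pups that were 10 days old at surgery, called young, 7 days after the operation in every group. In spared nerve injury (SNI) the common peroneal and tibial branches of the sciatic nerve were tied and cut and the sural branch was left whole, so injured and intact neurons lay in the same ganglia. The groups were adult SNI (n = 3 arrays), adult contralateral, the uninjured side after SNI (n = 3), adult sham, in which the nerves were exposed without being cut (n = 3), young SNI (n = 2), young contralateral (n = 2) and young sham (n = 3). Each array held 1 pool, of 6 DRG from 3 rats in adults and of 8 DRG from 4 rats in pups, so the spread between arrays is a spread between pools.

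Programmed cell death of neurons is set by the balance between members of the Bcl-2 family at the outer membrane of the mitochondrion. Bcl2 and Bcl2l1 (Bcl-xL) hold the pore former Bax in check, and the BH3-only proteins Bcl2l11 (Bim) and Hrk (also called DP5) are made or released under stress or loss of growth factor and relieve that check. Once the membrane is open, executioner caspases such as Casp6, which is also known for its part in the breakdown of axons, cut cell proteins. Cdkn1a (p21) blocks cyclin-dependent kinases, which stops the cell cycle in dividing cells, and it is also made in stressed cells that do not divide.

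The stretches before the transcription starts of Cdkn1a and Bcl2l11 are shown because the Affy_IDs of these genes carried the differences given below. Each runs from 250 bases before the start up to the start (RefSeq, build GRCr8, 5′ to 3′ on the strand of the gene). That of Cdkn1a lies at chr20:7150682-7150931 and that of Bcl2l11 at chr3:135819792-135820041, both on the + strand. The capitals mark a match to a motif.
Cdkn1a: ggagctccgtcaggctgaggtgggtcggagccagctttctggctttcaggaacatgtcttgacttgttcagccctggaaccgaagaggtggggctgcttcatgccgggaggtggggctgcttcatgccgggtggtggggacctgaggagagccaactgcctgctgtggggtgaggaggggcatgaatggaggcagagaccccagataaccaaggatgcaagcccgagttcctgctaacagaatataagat
Bcl2l11: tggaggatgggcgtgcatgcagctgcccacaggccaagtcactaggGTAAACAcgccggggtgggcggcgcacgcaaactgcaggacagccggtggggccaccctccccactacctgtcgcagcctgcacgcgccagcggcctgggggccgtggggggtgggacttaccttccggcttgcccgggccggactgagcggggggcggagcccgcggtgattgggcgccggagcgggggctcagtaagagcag
The motifs searched, on both strands, were GTAAACA, known from FOXO factors, TGANTCA, known from AP-1, which holds Jun, and TGACGTCA, the cyclic AMP response element, to which Atf3 can bind. None of them overlapped another. A promoter was given for 6 of the 7 genes, with 9 windows in all because Bcl2l1 had 4 starts. The 1 match was GTAAACA in Bcl2l11, between 204 and 198 bases before the start. Of all 33469 promoter windows of this length, 3.21% held GTAAACA, 6.34% TGANTCA and 1.59% TGACGTCA. A match is a match of letters, and binding was not measured.

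Most of the 11 Affy_IDs had low values throughout. All values are log2 values after GC-RMA, the authors' background adjustment, and over all Affy_IDs the median of an array lay between 5.13 and 5.475. Only 4 of the 11 were above a log2 of 4 in at least 2 arrays, against 59.7% of all Affy_IDs. These 4 were 2 Affy_IDs of Bcl2l1, 1 of Bcl2l11 and 1 of Cdkn1a. The Affy_ID of Bcl2 (1387611_at) ran between 2.72 and 3.12, that of Hrk (1368535_at) between 2.40 and 2.83, and that of Casp6 (1368305_at) between 1.89 and 4.22. The lowest Affy_ID of Bcl2l1 (1369180_at) ran between 2.04 and 2.25, and the other two of Bcl2l11 between 1.98 and 2.11 (1370787_at) and between 2.82 and 3.25 (1387338_s_at). Low values of this kind set a limit, since a transcript near the background of its probes can change without moving its value.

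**Figure D1:**
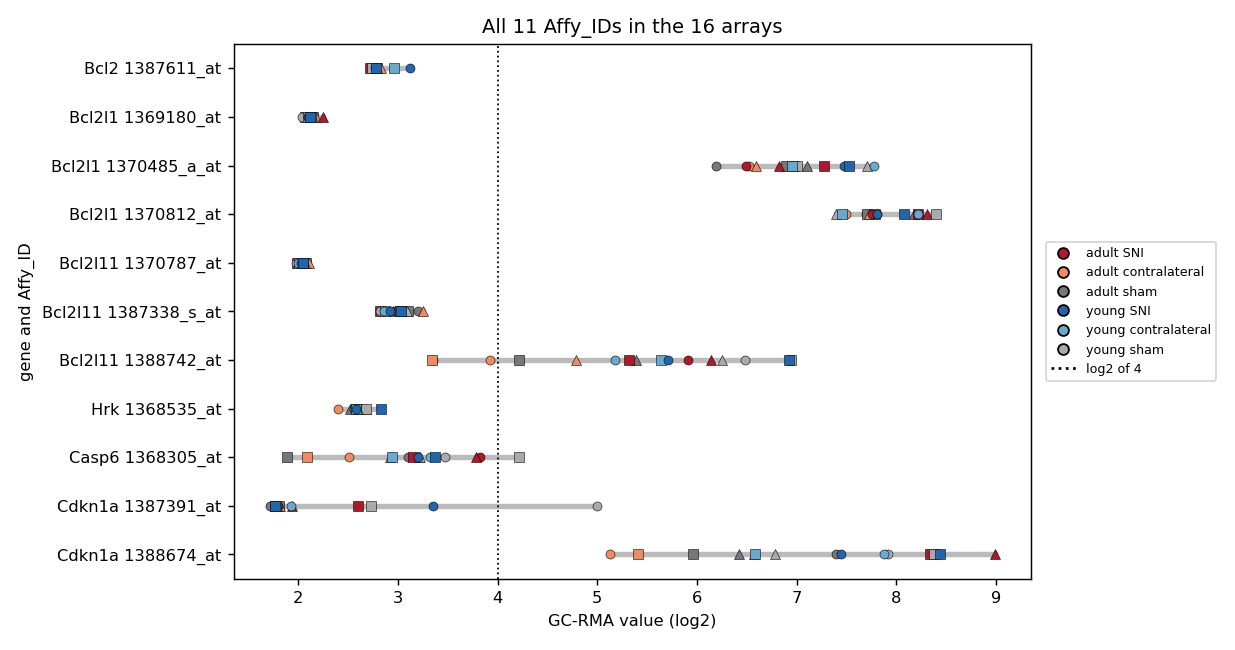
Log2 GC-RMA value (horizontal axis) of the 11 Affy_IDs (vertical axis) in each of the 16 arrays, with the colour giving the group, the shape the replicate number (circle 1, square 2, triangle 3) and the grey line the whole range. Only 4 of the 11 lie above a log2 of 4 (dotted line) in 2 or more arrays, and Cdkn1a 1388674_at and Bcl2l11 1388742_at have the widest ranges, 3.86 and 3.60.

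The arrays themselves differed in ways that touch these genes. Sensory neuron markers (11 measured) had high mean log2 values in every array, 11.709 to 13.124. Young SNI replicate 2 stood apart, with a mean of 10.566 over 7 markers of central nervous tissue, against 2.333 to 3.027 in the other arrays. Markers of injured sensory neurons (8 measured, among them Atf3, Gal, Npy and Sprr1a) averaged 11.131 to 11.53 in adult SNI, 5.407 to 5.634 in adult contralateral and 6.29 to 6.938 in adult sham. In pups the groups overlapped, with 8.259 and 10.385 in young SNI, 5.47 and 9.358 in young contralateral and 7.902 to 11.109 in young sham. By these markers 2 young sham arrays and young contralateral replicate 1 lay above young SNI replicate 1, against their labels. Xist, which is transcribed in female cells, was at 2.32 to 2.57 in the adult arrays, at 11.84 and 12.05 in young SNI, and between 2.35 and 11.51 in young contralateral and between 2.36 and 11.87 in young sham. Xist thus varied between the young arrays, and the part of sex in the comparisons between ages and of young SNI with its controls was not tested.

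The first question was which of these genes differed in the adult ganglion after SNI. In the fit that left the replicate numbers aside, Cdkn1a was the only gene of the 6 to pass a test. It passed through its Affy_ID 1388674_at and not against sham alone. This Affy_ID was 7.38-fold higher in adult SNI than in adult contralateral DRG and 5.43-fold higher than the mean of both adult controls. The low Affy_ID of Cdkn1a, 1387391_at, differed from that mean by a log2 of 0.33 and did not pass. Bcl2l11 and Casp6 had higher means after SNI but did not pass in this fit, and the pro-survival genes Bcl2 and Bcl2l1 stayed within their spread.

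Cdkn1a had log2 values of 8.43, 8.34 and 8.99 in adult SNI, against 5.13, 5.41 and 6.57 in adult contralateral and 7.39, 5.96 and 6.42 in adult sham. All 3 SNI arrays thus lay above all 6 control arrays. It was the only Affy_ID of the 11 without overlap, and 5.75% of all Affy_IDs did not overlap between these arrays in either direction.

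Each comparison was tested with limma over all 31042 Affy_IDs, with p adjusted by Benjamini-Hochberg and 0.05 as the threshold. Against the contralateral side, the log2 difference of Cdkn1a was 2.88 (SE 0.56, adjusted p = 0.0355). This was 1 of 11 Affy_IDs, where 1.03% of all Affy_IDs passed. The 3 differences by replicate number, SNI minus contralateral, were 3.30, 2.93 and 2.42. Against the mean of both controls the log2 difference was 2.44 (SE 0.48, adjusted p = 0.0346), again 1 of 11, with 1.28% passing overall. Against sham alone it was 2.00 (SE 0.56, adjusted p = 0.242), and 0 of the 11 passed there, while 0.48% of all Affy_IDs did. An unadjusted limma p under 0.05 was found there for 3 of the 11 and for 2276 of all 31042 Affy_IDs.

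The call of Cdkn1a stood close to the threshold and moved with the way the replicate numbers were used. Same-numbered SNI and contralateral arrays deviated together in adults. The replicate number was used as a block within each age, which also joined the sham array of that number. With this block the adjusted p of limma was 0.0847 against contralateral and 0.0771 against both controls. The log2 differences were the same with the block, 2.88 and 2.44. With a random block, which joined only the SNI and contralateral arrays of a number, the adjusted p of limma was 0.00439 and 0.0131. That fit called 1402 and 836 of all 31042 Affy_IDs, against 321 and 398 without a block. In each of these 2 comparisons, leaving out any 1 of 8 arrays among the 16 also ended the call, with log2 differences of 2.60 to 3.32 and 2.24 to 2.66 over the 16 fits.

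Bcl2l11 (1388742_at) had log2 values of 5.91, 5.32 and 6.14 in adult SNI, against 3.92, 3.34 and 4.79 in adult contralateral and 3.35, 4.21 and 5.39 in adult sham. The SNI arrays were above the 3 contralateral arrays, and 1 sham array lay between them. Its log2 difference was 1.77 against contralateral (SE 0.52, adjusted p = 0.202), 1.47 against sham (SE 0.52, adjusted p = 0.457) and 1.62 against both (95% interval 0.63 to 2.62, adjusted p = 0.149). The intervals lay above 0 for this gene taken alone, but it did not pass over all Affy_IDs in this fit. By replicate number, SNI minus contralateral was 1.99, 1.98 and 1.35. With the block that also joined sham, the adjusted p of limma was 0.0961 against contralateral and 0.0712 against both. With the random block these were 0.0208 and 0.0382.

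Casp6 had log2 values of 3.82, 3.15 and 3.78 in adult SNI, against 2.51, 2.09 and 2.92 in adult contralateral and 3.10, 1.89 and 3.21 in adult sham. Here too 1 sham array lay among the SNI arrays, and all 9 values were below the log2 of 4. The log2 difference was 1.08 against contralateral (SE 0.37, adjusted p = 0.303), 0.85 against sham (SE 0.37, adjusted p = 0.642) and 0.96 against both (95% interval 0.26 to 1.67, adjusted p = 0.264). By replicate number, SNI minus contralateral was 1.31, 1.06 and 0.86. Against contralateral the adjusted p of limma was 0.12 with the block that also joined sham and 0.0468 with the random block.

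Bcl2l1, the pro-survival member with values well above the background, is measured by 2 such Affy_IDs. The first, 1370812_at, had 7.76, 8.22 and 8.31 in adult SNI, against 7.50, 7.79 and 7.73 in adult contralateral and 7.70, 7.71 and 8.18 in adult sham. Its log2 difference from both controls was 0.33 (95% interval -0.19 to 0.84, adjusted p = 0.763). The other, 1370485_a_at, averaged 6.86 ± 0.39 in adult SNI, 6.69 ± 0.24 in adult contralateral and 6.73 ± 0.48 in adult sham (SD, n = 3 each), with a log2 difference of 0.15 (95% interval -0.44 to 0.74). The 2 Affy_IDs correlated weakly over the 16 arrays (Pearson r = 0.248, a description). Of the low Affy_IDs, Bcl2 differed by -0.04 (95% interval -0.18 to 0.11) and Hrk by 0.07 (95% interval -0.07 to 0.21), intervals that hold only for the values as measured.

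**Figure D2:**
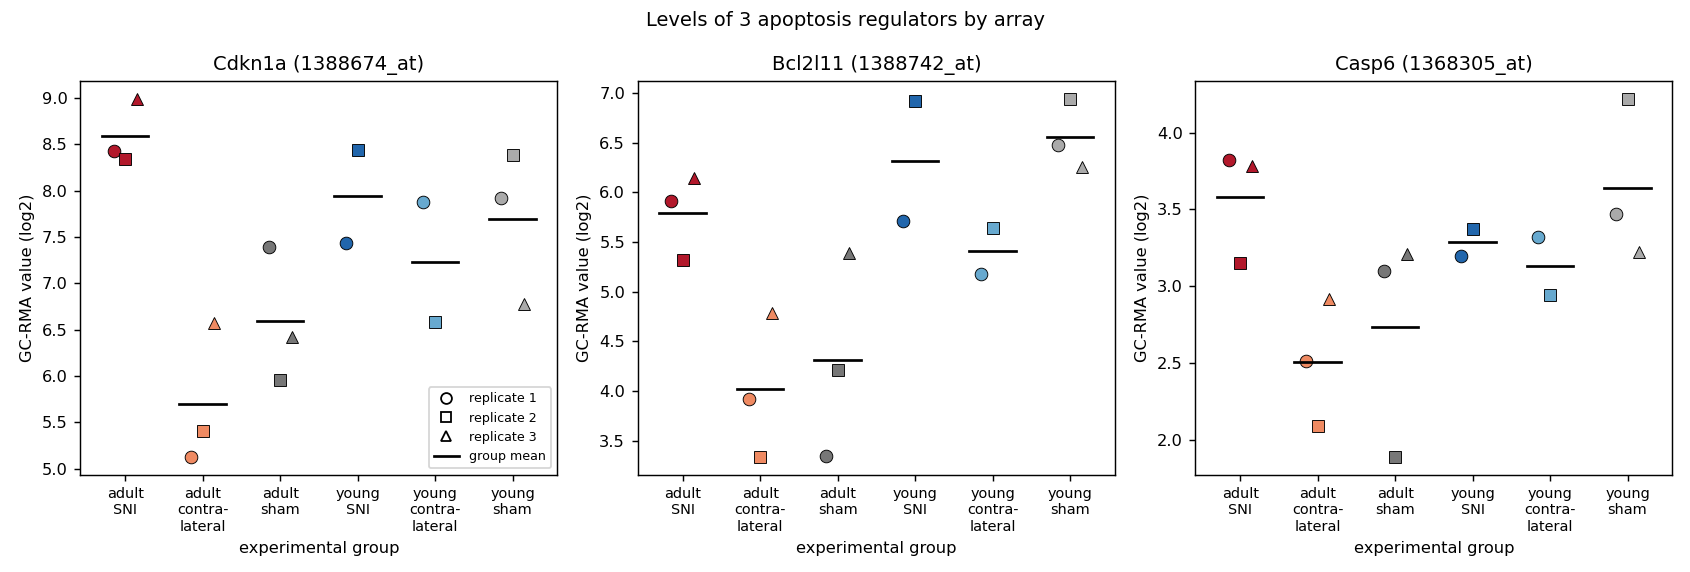
Log2 GC-RMA value (vertical axis) of Cdkn1a, Bcl2l11 and Casp6 in the single arrays of each group (horizontal axis), with a bar at the group mean and the shape giving the replicate number. The 3 adult SNI arrays of Cdkn1a lie at 8.34 to 8.99, above the adult controls at 5.13 to 7.39, while young SNI, at 7.44 and 8.44, lies within or just above the young controls at 6.58 to 8.38.

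In bulk ganglia a change in the number of cells of a type and in the RNA per cell cannot be told apart. The 8 markers of injured neurons all passed in adult SNI against both controls, with a median log2 difference of 5.29. Of 7 macrophage markers 2 passed, with mean log2 values of 5.796 to 6.32 in adult SNI, 4.516 to 4.609 in adult contralateral and 4.804 to 5.284 in adult sham. The part of these cells in the difference of Cdkn1a was not tested.

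In young rats the same question gave no call. None of the 11 Affy_IDs passed against young sham, young contralateral or their mean. Few Affy_IDs passed at all, 0.0161%, 0.00966% and 0.0226% of those tested, so a count of 0 among 11 is near the background. Against young sham 1 of the 11 had an unadjusted limma p under 0.05, as had 1836 of all 31042 Affy_IDs. Against young contralateral and the mean 0 of the 11 had, with 1843 and 2439 of all.

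Cdkn1a had log2 values of 7.44 and 8.44 in young SNI, against 7.88 and 6.58 in young contralateral and 7.92, 8.38 and 6.78 in young sham. The arrays of the 3 groups were mixed. Its log2 difference from both young controls was 0.48, and its 95% interval, -0.78 to 1.74, spanned both directions. Without young SNI replicate 2 it was -0.02, and without young contralateral replicate 1 it was 0.80, neither past the threshold. By replicate number, which by Xist does not join the same rats in every young pair, SNI minus contralateral was -0.44 and 1.86.

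Bcl2l11 had 5.71 and 6.92 in young SNI, against 5.18 and 5.64 in young contralateral and 6.48, 6.94 and 6.25 in young sham. Both SNI arrays were above the contralateral arrays and 1 was below all sham arrays. The log2 difference from both controls was 0.33 (95% interval -0.85 to 1.52), and -0.27 without young SNI replicate 2. Casp6 had 3.20 and 3.37 in young SNI, against 3.32 and 2.94 in young contralateral and 3.47, 4.22 and 3.22 in young sham, a log2 difference of -0.10 (95% interval -0.94 to 0.75).

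Bcl2l1 was as even in pups, with log2 differences from both controls of 0.21 for 1370485_a_at (95% interval -0.49 to 0.91) and 0.09 for 1370812_at (95% interval -0.52 to 0.70). Bcl2 had 3.12 and 2.78 in young SNI, against 2.77 and 2.96 in young contralateral and 2.75, 2.74 and 2.79 in young sham, so 1 array was higher and the other lay among the controls. Without overlap between young SNI and young control arrays there were 0 of the 11 Affy_IDs, and 3.01% of all.

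**Figure D3:**
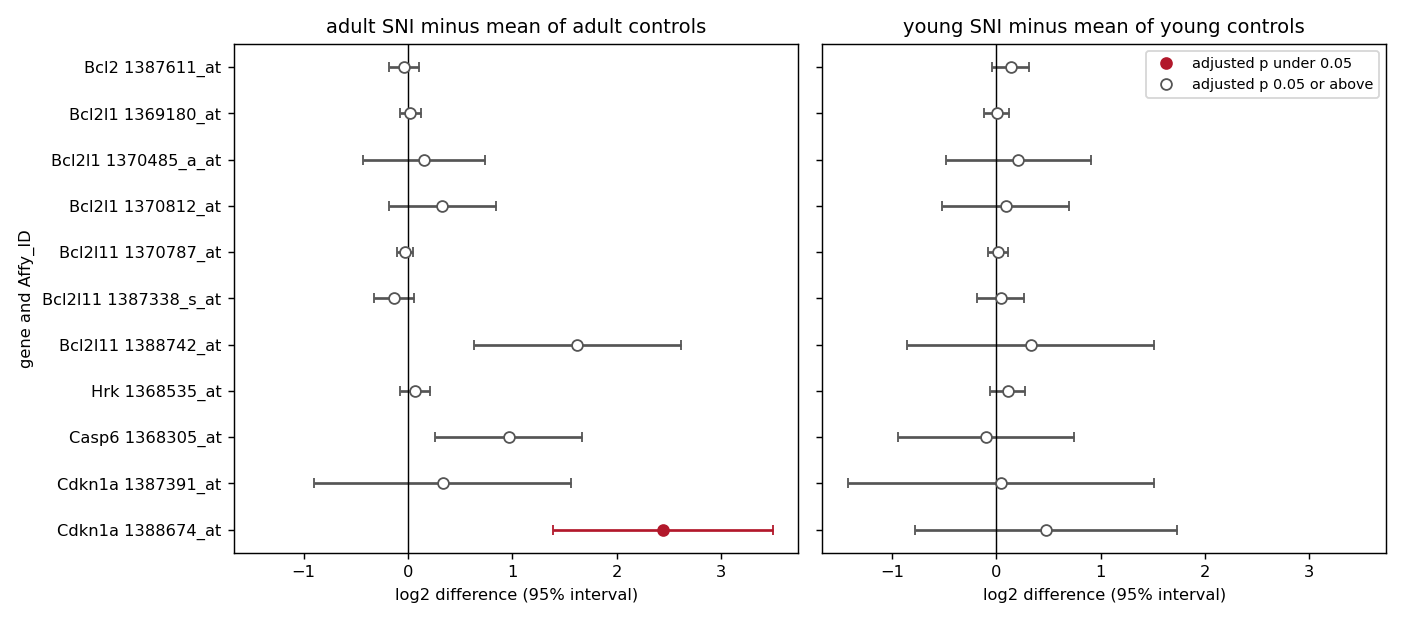
Log2 difference with its 95% interval (horizontal axis) of the 11 Affy_IDs (vertical axis), adult SNI minus the mean of the adult controls (left) and young SNI minus the mean of the young controls (right), with filled points where the adjusted p of limma was under 0.05. Cdkn1a 1388674_at in adults is the only filled point, at 2.44, and stands at 0.48 in young rats.

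The difference between ages in the response was tested directly, as the adult minus the young log2 difference from both controls. For Cdkn1a it was 1.96 (95% interval 0.32 to 3.60, adjusted p = 0.589), for Bcl2l11 1.29 (95% interval -0.26 to 2.84, adjusted p = 0.659) and for Casp6 1.06 (95% interval -0.04 to 2.16, adjusted p = 0.604). Hence 0 of the 11 passed, where 0.0966% of all Affy_IDs did, and a response of Cdkn1a in adults alone was not shown. The Bcl2l1 Affy_IDs differed by -0.06 (1370485_a_at) and 0.24 (1370812_at).

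Among the control ganglia the ages differed in 1 Affy_ID of Bcl2l11, 1388742_at. It was lower in the adult controls than in the young controls by a log2 difference of -1.82 (SE 0.39, adjusted p = 0.0282). The low Affy_IDs of this gene went the other way, by 0.04 (1370787_at) and 0.15 (1387338_s_at), and did not pass. For 1388742_at the adult controls ran between 3.34 and 5.39 with a median of 4.07. The young controls ran between 5.18 and 6.94 with a median of 6.25. A single adult sham array, at 5.39, lay within the young range. This was 1 of 11 Affy_IDs, with 4.36% of all passing, so the count is near the background. With the replicate number as a block, a comparison between ages is taken at replicate 1 of each age. The log2 difference there was -1.85 (adjusted p = 0.0802), which does not check the difference between group means. The difference between group means was -1.93 without young contralateral replicate 1. Over all 16 fits that left out 1 array it ran between -2.09 and -1.58, and the call was lost in 7. Some cell type markers also stood lower in the adult controls. Those that passed were 2 of 5 of myelinating Schwann cells, 2 of 6 of dividing cells, 2 of 8 of injured sensory neurons and 1 of 7 of macrophages. Of all genes 5.25% were called. The median log2 difference of the injured neuron markers was -2.46. Markers of Schwann and dividing cells had mean log2 values of 11.374 to 12.444 and 4.132 to 5.605 in the adult controls. In the young controls these were 12.568 to 13.092 and 5.335 to 5.785. The part of any of these cells in the level of Bcl2l11 was not tested.

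Between the sham groups alone the log2 difference of Bcl2l11 1388742_at was -2.24 (SE 0.52, adjusted p = 0.089). Of the 11, 0 passed, against 0.622% of all. Cdkn1a was also lower on average in the adult controls, with a median of 6.19 (5.13 to 7.39), against 7.88 (6.58 to 8.38) in the young controls, but did not pass (log2 difference -1.32, SE 0.42, adjusted p = 0.107). Casp6 had a median of 2.72 (1.89 to 3.21) in the adult controls, against 3.32 (2.94 to 4.22) in the young controls (log2 difference -0.76, SE 0.28, adjusted p = 0.166). The 3 Affy_IDs thus had lower means in adult than in young controls, and 1 passed.

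No age difference was called in these genes after SNI. Adult SNI and young SNI differed by a log2 of 0.65 in Cdkn1a (95% interval -0.72 to 2.01), -0.53 in Bcl2l11 (95% interval -1.81 to 0.76) and 0.30 in Casp6 (95% interval -0.62 to 1.21). Without young SNI replicate 2 the log2 differences were 1.15 in Cdkn1a, 0.08 in Bcl2l11, a turn of direction, and 0.38 in Casp6. Of the 11, 0 passed here, with 2.64% of all Affy_IDs passing. The comparisons within and between ages share arrays and are not independent of each other.

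The contralateral side was also compared with sham, the other kind of control. No unoperated group was measured, so this comparison cannot show whether the operation reached the other side. At either age 0 of the 11 Affy_IDs passed, and the share over all Affy_IDs was 0% in adults and 0% in young rats by limma, with 625 and 697 Affy_IDs under an unadjusted p of 0.05. Cdkn1a was lower on average in adult contralateral than in adult sham, 5.70 ± 0.76 against 6.59 ± 0.73 (SD, n = 3 each), a log2 difference of -0.89 (95% interval -2.11 to 0.33).

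Ordered by group mean, Cdkn1a stood at 8.59 in adult SNI, 7.94 in young SNI, 7.69 in young sham, 7.23 in young contralateral, 6.59 in adult sham and 5.70 in adult contralateral. Of the neighbours in this order that were compared, none differed past the threshold, and young contralateral was not compared with adult sham. Bcl2l11 had another order, with 6.56 in young sham, 6.32 in young SNI, 5.79 in adult SNI, 5.41 in young contralateral, 4.32 in adult sham and 4.02 in adult contralateral. Casp6 had its highest means in young sham (3.64) and adult SNI (3.58) and its lowest in adult contralateral (2.51).

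Cdkn1a ran beside Atf3, the transcription factor of injured neurons, within the young rats but not among the adult controls. From the lowest to the highest Atf3 value, the 7 young arrays were young contralateral 2, young sham 3, young SNI 1, young contralateral 1, young sham 1, young SNI 2 and young sham 2. Their Atf3 values were 4.87, 7.75, 7.77, 9.06, 9.49, 10.17 and 11, and their Cdkn1a values in the same order were 6.58, 6.78, 7.44, 7.88, 7.92, 8.44 and 8.38. Only the last pair was out of order, and the order did not follow the group labels. The 3 adult SNI arrays had Atf3 values of 11.60, 11.81 and 11.72. Among the 6 adult controls the Atf3 values, from lowest to highest, were 5.70, 5.91, 6.43, 6.77, 7.12 and 7.27. Their Cdkn1a values in the same order were 6.57, 7.39, 5.13, 5.41, 6.42 and 5.96, so the highest Cdkn1a values went with the lowest Atf3 values. This is a description of arrays chosen after their values were seen, and no test was made.

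**Figure D4:**
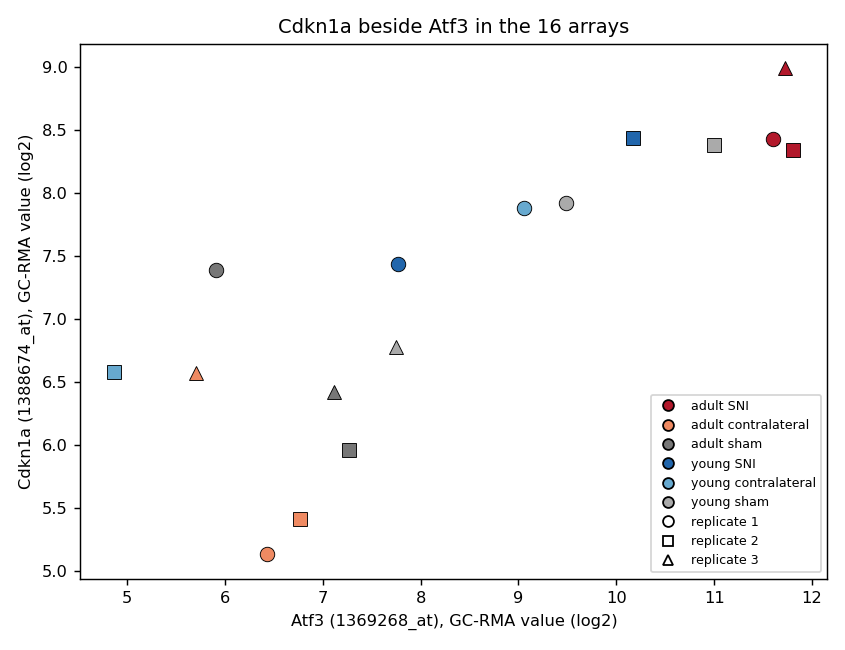
Log2 GC-RMA value of Cdkn1a (vertical axis) against that of Atf3 (horizontal axis), with 1 symbol per array, the colour giving the group and the shape the replicate number. The 3 adult SNI arrays lie at the upper right, with Atf3 at 11.60 to 11.81, and the 7 young arrays spread from 4.87 to 11 in Atf3 and from 6.58 to 8.44 in Cdkn1a whatever their group.

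Over the 16 arrays, the genes most like Cdkn1a were Ezh2, a histone methyltransferase (Pearson r = 0.954), Npy, the neuropeptide Y gene (r = 0.949), and Rab31, a small GTPase (r = 0.932). Ezh2 was also the gene most like Casp6 (r = 0.902), followed by Egfr, the receptor of epidermal growth factor (r = 0.897), and Smad4, the shared partner in TGF-beta signalling (r = 0.893). Casp6 was above a log2 of 4 in only 1 of the 16 arrays, so its correlations rest mostly on low values. For Bcl2l11 they were Strn4 (r = 0.906), Nono, an RNA-binding protein of the nucleus (r = 0.903), and Kdm2b, a histone demethylase (r = 0.897). For Bcl2l1 they were Csrp1 (r = 0.88), Il6r, the interleukin 6 receptor (r = 0.877), and Atf5 (r = 0.869). All arrays entered these correlations, which hold the differences between groups as well as those between pools, and each gene was picked as the highest of all.

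A wider set of genes of the same pathway placed these values. It held 69 measured genes, from Bcl-2 relatives, caspases and their inhibitors to death receptors, cell cycle inhibitors, stress kinases and axon degeneration. In adult SNI against both controls 4 of the 69 rose and 0 fell, against 1.86% of 14217 genes called, and the median of the 69 was 0.01. Against contralateral the count was 4 higher and 0 lower (1.53% of genes), and against sham 1 higher and 0 lower (0.626%).

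The 4 were Atf3, by a log2 of 5.18 (adjusted p = 0.019), Gadd45a, a stress gene of growth arrest and DNA damage, by 2.58 (adjusted p = 0.0106), Casp12, a caspase tied to the endoplasmic reticulum, by 1.17 (adjusted p = 0.0175), and Bok, a pore-forming relative of Bax, by 0.98 (adjusted p = 0.0115). Bok was also the gene that passed against sham (0.99, adjusted p = 0.0423). With the replicate number as a block, Bok (adjusted p = 0.0326) and Gadd45a (0.0365) passed against both controls, and Casp12 (0.0673) and Atf3 (0.0772) did not. Of all 31042 Affy_IDs 306 passed there. With this block 0 of the 69 passed against contralateral or against sham, where 169 and 98 of all Affy_IDs did. Gadd45a had 12.08, 12.39 and 12.21 in adult SNI, against 9.57, 9.54 and 9.36 in adult contralateral and 9.78, 9.85 and 9.76 in adult sham. Bok had 10.16, 10.57 and 10.65 in adult SNI, against 9.39, 9.71 and 9.40 in adult contralateral and 9.49, 9.39 and 9.52 in adult sham. In both genes the SNI arrays were above all 6 controls. None of the 4 pro-survival relatives, 7 BH3-only genes, 6 caspase inhibitors, 5 genes of the apoptosome and of released mitochondrial proteins, 8 death receptor genes and 5 axon degeneration genes passed in this comparison.

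In young SNI 0 of the 69 passed against either control or their mean, and 0 passed for the difference between ages. Few genes were called at all, 0.0211% against young sham, 0.0141% against young contralateral and 0.0211% against the mean. For the difference between ages it was 0.134%, so these counts of 0 are near the background. Between adult SNI and young SNI 9 were higher and 2 lower in adults (3.36% of genes). Most of these calls were lost without young SNI replicate 2, a fit with a single young SNI array. With the replicate number as a block, which takes a comparison between ages at replicate 1 of each, 1 was higher and 0 lower. In that fit 75 of all 31042 Affy_IDs passed. The gene was Tnfrsf21, death receptor 6, with log2 values of 11.93, 11.93 and 11.71 in adult SNI, against 10.67 and 10.77 in young SNI. Its log2 difference was 1.14 (adjusted p = 0.00371), 1.19 without young SNI replicate 2, and 1.11 with the block (adjusted p = 0.0463). The next by p were Bok (1.35), Casp12 (1.42), Bnip3, a mitochondrial relative of the BH3-only proteins (0.74), Bid, which caspases cut into its active form (1.17), and Ddit3, a transcription factor of endoplasmic reticulum stress (1.42). Bid had 7.99 in young SNI replicate 2 and 9.06 in replicate 1, against 9.71, 9.92 and 9.45 in adult SNI.

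Between adult and young controls 2 of the 69 were higher and 3 lower in adults (5.25% of genes). The higher ones were Faim2, a brake on death receptor signalling in neurons (log2 difference 1.61, adjusted p = 0.0244), and Bnip3 (0.67, adjusted p = 0.00793). The lower ones were Casp2, an initiator caspase (-0.59, adjusted p = 0.00828), Mdm4 (-1.17, adjusted p = 0.0191) and Cdkn1c, a relative of Cdkn1a that is high in development (-1.92, adjusted p = 0.0145). With the replicate number as a block, which takes this comparison at replicate 1 of each age, 0 of the 69 passed. That fit called 274 of all 31042 Affy_IDs, against 1353 without the block. Casp2 had 8.58, 8.29 and 8.96 in adult sham and 8.56 to 8.66 in adult contralateral, against 9.14 to 9.32 in the young controls, without overlap. Between the sham groups alone 1 of the 69 passed, Bnip3 (0.76, adjusted p = 0.0414), with 0.753% of genes called.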

How the data were processed

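The authors made biotin-labelled cRNA from total RNA, hybridised it to Affymetrix rat genome 230 2.0 arrays and deposited log2 values after GC-RMA. They had removed 2 young arrays as outliers (1 contralateral, 1 SNI), and the remaining 16 were used. The few pools and the background of the probes limit the precision. Symbols came from the platform annotation, 1 symbol for 20826 Affy_IDs, several for 436 and none for 9780, and 57 control Affy_IDs were left out.

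One limma 3.58.1 model (R 4.3.3) held 6 group means, with empirical Bayes variances (10 residual and 1.24 prior degrees of freedom). Within each of 12 comparisons p was adjusted over all Affy_IDs (Benjamini-Hochberg). P-values measure only the spread between pools. For a pathway gene the Affy_ID of highest mean was used, and of 80 listed genes 69 were measured and the others not analysed here. All Affy_IDs of the chosen genes are given. Pathway genes are named where they passed, up to 6 per comparison by p, and the 3 most similar genes by Pearson r. The genes, lists and motifs were chosen with earlier results of these data known.

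Replicate numbers paired adult SNI with adult contralateral arrays, since same-numbered deviations from the group means correlated at 0.449, 0.445 and 0.362. Between adult SNI and adult sham they correlated at -0.041, 0.132 and 0.2. Contralateral ganglia came from rats with SNI, but the labels do not say that a number marks the same animals on both sides. In young rats, with 2 arrays in each of these groups, the 2 pairs have the same correlation by construction, 0.151, which cannot decide. Xist was at 11.84 and 12.05 in young SNI but as low as 2.35 in young contralateral. If the labels hold, young replicate numbers thus do not mark the same rats in every pair. The fit was tested on simulated data. Alternatives were an intensity trend, a robust prior, each age alone, a filter on low values, quantile normalization, array weights, blocks, adjustment over all comparisons, and leaving out each array. Promoters were read from RefSeq (GRCr8) in Python. The authors' own versions of GC-RMA and limma were not given in the sources used here.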

Additional observations from a re-analysis of the deposited data

How the results depend on the processing

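Counts of the 11 Affy_IDs past the threshold moved in these settings. With the filter on low values 1 passed for adult sham versus young sham (Bcl2l11, log2 difference -2.24, adjusted p = 0.04). In that fit 323 of the 18540 Affy_IDs kept passed. With array weights 2 passed for adult SNI versus adult contralateral (Cdkn1a and Bcl2l11) and 2 for adult versus young controls (Bcl2l11 and Cdkn1a). Over all 31042 Affy_IDs 827 and 2566 passed with the weights, against 321 and 1353 without. With the replicate number as a block 0 passed for adult SNI versus contralateral, 0 versus both controls and 0 for adult versus young controls. Over all Affy_IDs 169, 306 and 274 passed there, against 321, 398 and 1353 without the block. The last of these is taken at replicate 1 of each age and does not check the group means. With adjustment over all 12 comparisons 0 of the 11 passed in the same comparisons, with 211, 252 and 423 of all Affy_IDs passing. The adjusted p over all 12 was 0.0572 and 0.063 for Cdkn1a and 0.0896 for Bcl2l11. A random block joined only the SNI and contralateral arrays of a number and kept each sham array apart (correlation 0.467). With it 3 passed versus contralateral (Cdkn1a, adjusted p = 0.00439, Bcl2l11, 0.0208, and Casp6, 0.0468) and 2 versus both controls (Cdkn1a, 0.0131, and Bcl2l11, 0.0382). Over all Affy_IDs 1402 and 836 passed with the random block. The 2 blocked fits thus differ in the arrays joined as well as in how the block was fitted. The part of each was not tested. Neither block changed another call of the 11.

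Leaving out 1 array at a time, the count ran between 0 and 1 for adult SNI versus contralateral, versus both controls and versus young SNI, for adult sham versus young sham and for adult versus young controls, and was 0 in the other comparisons. Cdkn1a versus contralateral was lost without adult sham 3, any adult contralateral or SNI array, or young sham 1 (adjusted p 0.0501 to 0.175 in these fits). Versus both controls it was lost without adult sham 2 or 3, adult contralateral 1 or 2, any adult SNI array, or young sham 1 (0.0562 to 0.174), and without adult sham 3 Bcl2l11 passed (log2 difference 1.89, 0.0499). Bcl2l11 between the controls was lost without adult sham 2, adult contralateral 1 or 2, young sham 1 or 2, or either young contralateral array (0.0512 to 0.0915). Adult sham versus young sham gained Bcl2l11 without adult sham 3 (-2.78, 0.0269), and adult SNI versus young SNI gained Bcl2 without young SNI 2 (-0.38, 0.048). For Cdkn1a, Bcl2l11 and Casp6, in adult SNI against its controls, the difference in response between ages and the adult against the young controls, no direction turned, and 329 refitted values kept their side of the threshold, 29 lost a call and 6 gained one. Without young SNI 2 directions did turn in uncalled differences, for Cdkn1a against young sham (-0.25) and both young controls (-0.02) and for Bcl2l11 against both young controls (-0.27) and in adult SNI versus young SNI (0.08). The filter dropped 7 of the 11 Affy_IDs, Casp6 among them, so they have no value there, and each age on its own gives none between ages. With 2 or 3 pools a group and 7 Affy_IDs near background, small changes could not be seen.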

Other observations

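The second Affy_ID of Cdkn1a, 1387391_at, was high in single arrays. It had log2 values of 5.0 in young sham replicate 1, 3.35 in young SNI replicate 1, 2.73 in young sham replicate 2 and 2.60 in adult SNI replicate 2, and at most 1.94 in the other arrays. These 4 arrays come from 3 groups. The correlation with 1388674_at over the 16 arrays was 0.308, a description. Its log2 difference was 0.33 in adult SNI against both controls (95% interval -0.90 to 1.57) and 0.05 in young SNI (95% interval -1.42 to 1.51).

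The Affy_IDs of Bcl2l11 did not run together. 1388742_at correlated at -0.271 with 1370787_at and at -0.433 with 1387338_s_at, while these low ones correlated at 0.851 with each other over the 16 arrays. In adult SNI against both controls they differed by -0.03 (1370787_at, 95% interval -0.11 to 0.04) and -0.14 (1387338_s_at, 95% interval -0.33 to 0.06), against 1.62 for 1388742_at. Which transcripts each of them detects was not examined.

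The genes most like Bcl2 over the 16 arrays were Kif20a, a kinesin of dividing cells (Pearson r = 0.973), Dcakd (r = 0.966) and Gucy1a1, a subunit of the nitric oxide receptor (r = 0.966). The values of Bcl2 spanned only a log2 of 0.40, and its highest array was young SNI replicate 1. Those most like Hrk were Dusp10, a phosphatase of stress kinases (r = 0.89), Tubb4a, a tubulin (r = 0.875), and Hlf (r = 0.857), with the highest Hrk value, 2.83, in young SNI replicate 2, the array that was high in markers of central nervous tissue.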
